A study of Mus musculus with 6 samples.

Results

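The 9 genes described here carry dopamine through its life in a neuron, from synthesis to breakdown. They were chosen by symbol for that role, out of 22095 genes of the deposited table: Th, Ddc, Gch1, Pts, Qdpr, Slc6a3, Slc18a2, Maoa and Maob. RNA with poly(A) tails was sequenced from the left and right olfactory bulb of 3 ICR mice, an outbred stock, numbered 1037, 1038 and 1039. Every mouse had a silica gel plug placed in the left naris on postnatal day 30, and its bulbs were dissected 60 days after that, following perfusion with saline. The left bulbs thus form the plugged side (n = 3) and the right bulbs the open side (n = 3). All mice carried a plug, so each right bulb also comes from an operated animal, and a difference between the sides that was there without a plug cannot be told apart from one that came with it.

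Read totals were 14571453 to 15590938 per library, where 1 read equals 0.0641 to 0.0686 CPM (the read count scaled to the same total in every library) and 3 reads, the limit that a count of 0 allows, equal 0.192 to 0.206 CPM. The limit for a count of 0 covers counting error only. The intervals given below come from the fits and also take in spread between libraries. The library labelled left 1038 went against its tissue label. Of 6 markers of bulb neurons, Dlx1, Dlx2, Cdhr1 and Tbx21 lay between 0 and 0.755 CPM in it and all 6 summed to 503 CPM, against 1905 to 2274 CPM elsewhere. The 5 markers of cerebellar granule cells summed to 4327 CPM in it, against 139 to 163 CPM in the other libraries, where Pax6, also a bulb gene, makes up 74.3 to 90.4 CPM. It is therefore shown apart, and the comparison of sides used 5 libraries, 2 left and 3 right. In these 5 the labelled tissue matched its markers, with Cdhr1 of mitral and tufted cells at 663 to 829.5 CPM and Dlx1 of interneurons at 304 to 358 CPM.

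Dopamine is made from tyrosine in a pair of steps. Tyrosine hydroxylase, the product of Th, makes L-DOPA and sets the pace of the route, and aromatic L-amino acid decarboxylase, from Ddc, turns L-DOPA into dopamine. Tyrosine hydroxylase needs tetrahydrobiopterin as a cofactor, which is built by the enzymes of Gch1 and Pts and regenerated by that of Qdpr. Slc18a2 encodes VMAT2, the pump that loads monoamines into vesicles, Slc6a3 encodes DAT, which takes dopamine back into the cell, and Maoa and Maob encode the monoamine oxidases of the outer mitochondrial membrane. In the olfactory bulb, dopamine is known as a transmitter of interneurons around the glomeruli, which also release GABA, and Th in these cells is known to follow sensory input.

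RefSeq promoters on GRCm38.p6 were found for 8 of the 9 genes. The 250 bases before the transcript start are shown for Th, the gene with the largest difference between sides, for both starts of Ddc, whose product acts next in the route, and for the vesicular pump and the transporter. Capitals mark matches on either strand to the cAMP response element TGACGTCA, the AP-1 site TGANTCA, the NBRE site of Nr4a receptors AAAGGTCA, or the Egr sites GCGTGGGCG and GCGGGGGCG, and no marked match overlaps another. For Slc18a2 the sequence runs 4 bases into the transcript, to the end of a match that spans the start.
Th, chr7:142899996-142900245, minus strand: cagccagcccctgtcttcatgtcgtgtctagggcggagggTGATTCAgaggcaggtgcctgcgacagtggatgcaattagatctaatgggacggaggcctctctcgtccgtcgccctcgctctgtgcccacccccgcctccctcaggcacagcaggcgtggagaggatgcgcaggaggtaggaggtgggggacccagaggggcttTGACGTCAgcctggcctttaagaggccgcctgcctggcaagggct
Ddc, chr11:11890409-11890658, minus strand: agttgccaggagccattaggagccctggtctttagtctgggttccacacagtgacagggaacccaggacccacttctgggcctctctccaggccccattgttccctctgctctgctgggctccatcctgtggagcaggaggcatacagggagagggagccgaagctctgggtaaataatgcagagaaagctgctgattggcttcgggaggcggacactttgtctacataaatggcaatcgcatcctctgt
Ddc, upstream start, chr11:11898145-11898394, minus strand: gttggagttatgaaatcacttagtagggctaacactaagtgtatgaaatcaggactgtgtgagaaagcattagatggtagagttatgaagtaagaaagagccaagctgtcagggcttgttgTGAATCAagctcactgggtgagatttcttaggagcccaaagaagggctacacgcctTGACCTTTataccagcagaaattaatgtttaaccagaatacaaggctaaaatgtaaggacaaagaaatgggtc
Slc6a3, chr13:73536497-73536746, plus strand: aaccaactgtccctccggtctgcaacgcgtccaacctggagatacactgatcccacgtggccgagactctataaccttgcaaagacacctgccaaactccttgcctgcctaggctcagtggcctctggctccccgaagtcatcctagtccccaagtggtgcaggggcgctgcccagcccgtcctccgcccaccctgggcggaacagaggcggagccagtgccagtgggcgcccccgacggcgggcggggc
Slc18a2, chr19:59260628-59260881, plus strand: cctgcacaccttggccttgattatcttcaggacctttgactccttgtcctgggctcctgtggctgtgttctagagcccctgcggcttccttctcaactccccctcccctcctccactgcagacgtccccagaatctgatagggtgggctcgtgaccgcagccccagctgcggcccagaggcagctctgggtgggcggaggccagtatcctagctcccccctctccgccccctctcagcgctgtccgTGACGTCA
The Th promoter held the full cAMP response element 45 to 38 bases before the start and an AP-1 match 210 to 204 bases before it. Slc18a2 held the full cAMP response element from 4 bases before the RefSeq start at 59260878 to base 4 of that transcript. The gene annotation used for the coordinates below starts Slc18a2 later, at 59260896. The upstream start of Ddc held an AP-1 match 129 to 123 bases and an NBRE match 73 to 66 bases before it, while the other Ddc start and Slc6a3 held none of these letters in the 250 bases. Among 32851 promoter windows of 250 bases, 1.55% held the full cAMP response element, 6.75% the AP-1 site, 1.34% the NBRE site and 3.06% an Egr site. With the 50 bases after the start included, 1.79% held the full cAMP response element. These matches are letters in a window, with no binding measured here.

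Th was the single one of the 9 genes called at an adjusted p under 0.05 (edgeR's quasi-likelihood test, adjusted over all genes tested), and it fell to 29.9% of its open-side level. Of the 14412 genes tested, 9.62% were called, and 6.46% were called lower on the left. All 9 genes passed the filter on low counts. Th was thus 1 of 9 called lower and 0 of 9 were called higher, where 3.16% of all genes were called higher, and the median log2 fold change (left over right) was 0.037 for the 9 genes and 0.005 for all genes tested. Over all genes 32.9% of calls were higher on the left, and 62.3% with scaling by library total alone, which moved the median of all genes to 0.087.

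**Figure D1:**
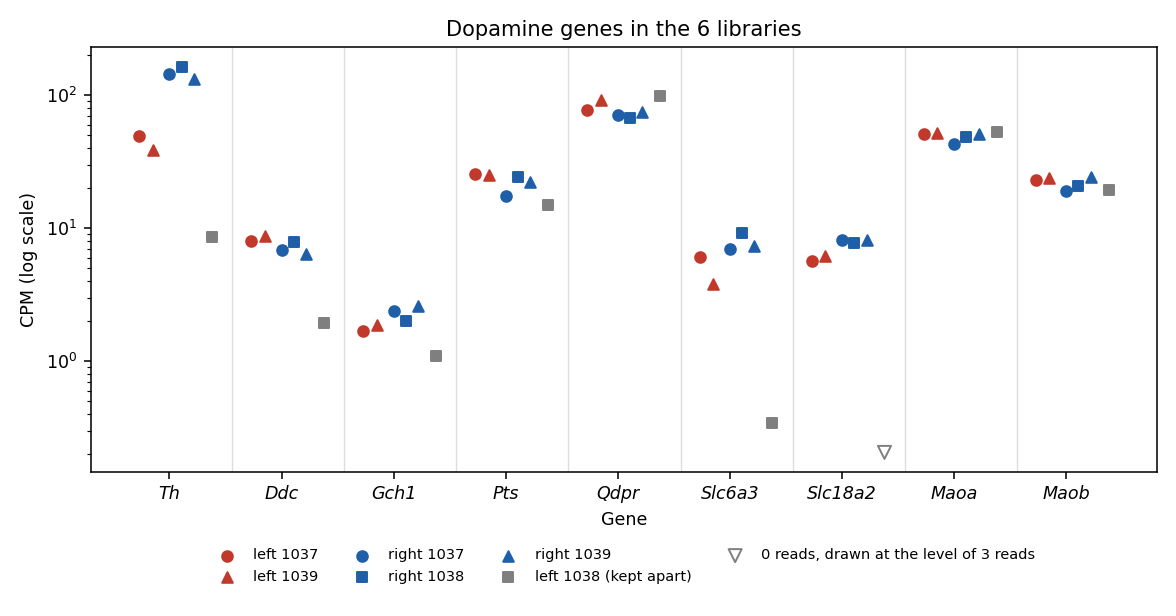
CPM on a log axis for each of the 9 genes, with 1 point per library: red for left, blue for right, and grey for the library labelled left 1038, which is kept apart (circles are mouse 1037, squares 1038, triangles 1039). Th lies at 39.0 and 49.0 CPM in the red points and at 132 to 164 CPM in the blue ones, and the open triangle stands for the 0 reads of Slc18a2 in left 1038.

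Th (ENSMUSG00000000214, chromosome 7, 142892752 to 142931128 on GRCm38, minus strand) stood at 49.0 CPM in the plugged bulb of mouse 1037 and at 39.0 CPM in that of mouse 1039. On the open side it stood at 145 CPM in right 1037, 164 CPM in right 1038 and 132 CPM in right 1039. Both left bulbs were far below every right bulb, and the highest left value was under the lowest right value. The counts behind these values were 756 and 587 reads on the left and 2259, 2474 and 1938 reads on the right. The left mean was 44.0 ± 7.08 CPM (SD, n = 2), the right mean 147 ± 15.9 CPM (SD, n = 3), and the fitted difference was a fall by 1.82 on the log2 scale (SE 0.12, 95% interval -2.08 to -1.56, edgeR adjusted p = 8.11e-05). Within a mouse, the log2 ratio of CPM was -1.56 in mouse 1037 and -1.76 in mouse 1039, so the fall was seen in both animals with a pair of bulbs. Leaving out each of the 5 libraries in turn gave -2.0 to -1.66, with Th called each time (edgeR adjusted p up to 0.00114). In whole bulbs, fewer cells that make Th and less Th RNA per cell cannot be told apart. Of all genes tested, 40 had a lower log2 fold change than Th, and 17 of these were called.

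Ddc (ENSMUSG00000020182, chromosome 11, 11814101 to 11898144, minus strand), which acts directly after Th, was not lower in the left bulbs. Its plugged side gave 8.03 CPM (mouse 1037) and 8.70 CPM (mouse 1039), against 6.80, 7.82 and 6.42 CPM in right 1037, 1038 and 1039. The left bulbs were slightly above the right ones, and the groups did not overlap on this scale, while they did after TMM scaling of the libraries. The log2 fold change was 0.17 (SE 0.16, 95% interval -0.19 to 0.53, adjusted p = 0.569 by edgeR), an interval that does not reach that of Th. It was 0.26 without right 1038 and 0.11 without right 1039. The counts were 124 and 131 reads on the left and 94 to 118 reads on the right, so a small change in either direction was not detectable at this depth.

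The cofactor genes showed no called difference. Gch1 (ENSMUSG00000037580, chromosome 14, 47153895 to 47189413), for GTP cyclohydrolase, the first enzyme of tetrahydrobiopterin synthesis, was the lowest of the 9 genes, at 26 and 28 reads on the plugged side and 37, 30 and 38 reads in right 1037, 1038 and 1039. These are 1.68 and 1.86 CPM on the left and 2.37, 1.99 and 2.59 CPM on the right, so the left bulbs were lower without overlap. Its log2 fold change was -0.47, with a wide 95% interval of -1.12 to 0.18 (edgeR adjusted p = 0.364). Pts (ENSMUSG00000032067, chromosome 9, 50521617 to 50528724), for the enzyme after Gch1, stood at 25.5 and 25.1 CPM on the left and at 17.6, 24.2 and 22.4 CPM in right 1037, 1038 and 1039. The right bulbs spread more than the difference between the means, and the log2 fold change was 0.16 (SE 0.13, edgeR adjusted p = 0.490), with 0.05 without right 1037 and 0.26 without right 1038. Qdpr (ENSMUSG00000015806, chromosome 5, 45434021 to 45450236), for the reductase that recycles the cofactor, stood at 77.3 and 91.6 CPM on the left and at 70.6, 67.1 and 75.0 CPM on the right. Both left bulbs were above the right ones, with a log2 fold change of 0.17 (SE 0.08, edgeR adjusted p = 0.244) that was 0.05 without left 1039 and 0.29 without left 1037.

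The vesicular pump for monoamines and the dopamine transporter were lower in both left bulbs, but neither passed the test. Slc18a2 (ENSMUSG00000025094, chromosome 19, 59260896 to 59296012) stood at 5.70 CPM (mouse 1037) and 6.17 CPM (mouse 1039) on the plugged side and at 8.15, 7.68 and 8.12 CPM in right 1037, 1038 and 1039. The groups did not overlap, and the left mean was 74.4% of the right mean. Its log2 fold change was -0.51 (SE 0.16, 95% interval -0.87 to -0.15, unadjusted p = 0.00990, edgeR adjusted p = 0.0787). Slc6a3 (ENSMUSG00000021609, chromosome 13, 73536747 to 73578672) gave 6.03 CPM (mouse 1037) and 3.78 CPM (mouse 1039) on the plugged side and 6.99, 9.27 and 7.30 CPM on the right. The pair of left bulbs differed from each other more than left 1037 differed from right 1037. Its log2 fold change was -0.76 (SE 0.23, 95% interval -1.28 to -0.24, unadjusted p = 0.00872, edgeR adjusted p = 0.0727). This value depended on which left library was used: without left 1037 it was -1.13 and passed (edgeR adjusted p = 0.0244, where 7.28% of all genes were called, 5.24% lower and 2.04% higher), and without left 1039 it was -0.45 and did not (edgeR adjusted p = 0.314). Counts were 57 to 93 reads on the left and 107 to 140 on the right for Slc6a3, and 88 and 93 against 116 to 127 for Slc18a2.

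The monoamine oxidases showed no called difference between the sides. Maoa (ENSMUSG00000025037, X chromosome, 16619698 to 16687818), which prefers serotonin and noradrenaline, stood at 51.1 and 51.6 CPM on the left and at 43.0, 48.1 and 50.9 CPM in right 1037, 1038 and 1039. Maob (ENSMUSG00000040147, X chromosome, 16709282 to 16817366), its neighbour on the chromosome and known from astrocytes and serotonin neurons, stood at 23.0 and 23.8 CPM on the left and at 18.9, 20.7 and 24.1 CPM on the right. The left and right values of Maob overlapped, and those of Maoa were apart by less than the spread of the right libraries. Their log2 fold changes were 0.04 (95% interval -0.15 to 0.23, edgeR adjusted p = 0.834) and 0.06 (95% interval -0.20 to 0.32, edgeR adjusted p = 0.811). Both intervals exclude a change as large as that of Th. Of 6 astrocyte markers 2 rose and 0 fell on the left, Gfap by 1.05 and Aqp4 by 0.30 on the log2 scale. DESeq2 with the mouse as a block ended the call of Aqp4 (adjusted p = 0.0767). The others were not called, with Gja1 at 0.14, Slc1a3 at -0.02, Aldoc at -0.01 and Aldh1l1 at -0.23. The summed level of the 6 was 2624 to 2692 CPM on the left and 2055 to 2280 CPM on the right. Within this sum, Gfap alone stood at 543 and 578 CPM on the left and at 221 to 297 CPM on the right. The part of the 6 markers in the level of Maob was not tested.

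**Figure D2:**
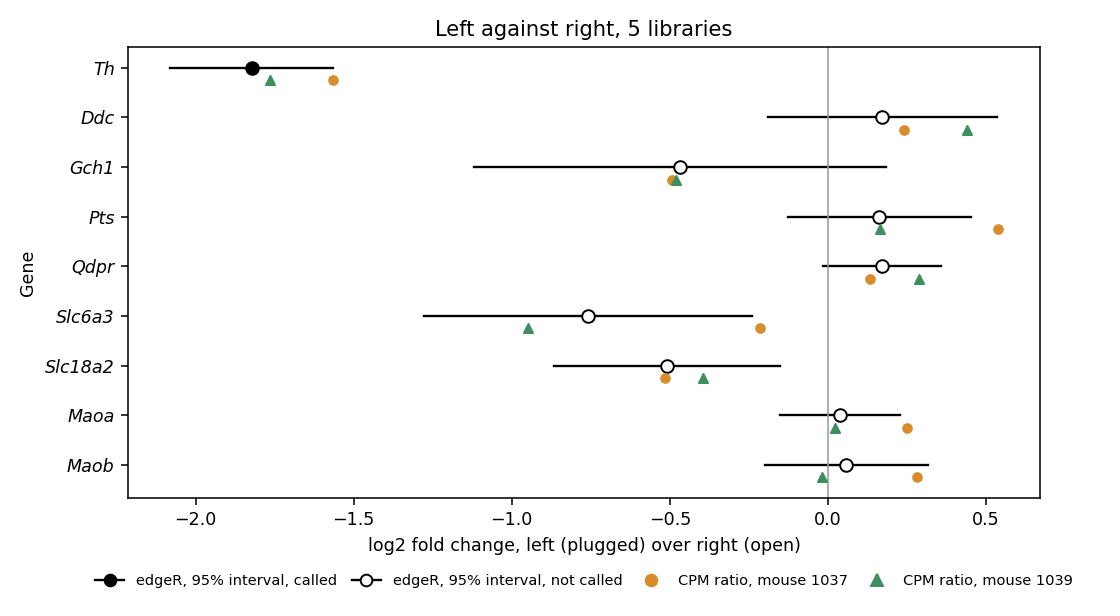
Log2 fold change, left over right, for each gene: large circles with lines are edgeR estimates with 95% intervals in the 5 libraries (filled where called), and the small orange circles and green triangles are the CPM ratios within mouse 1037 and mouse 1039. Th at -1.82 is the single filled circle, while the intervals of Slc6a3 and Slc18a2 also lie below 0.

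By direction, Th, Gch1, Slc6a3 and Slc18a2 had both left libraries below all right ones, 4 of the 9, while 13.2% of all genes tested had that pattern. Another 4, Ddc, Pts, Qdpr and Maoa, had both left libraries above, while 33.2% of all genes did. After TMM scaling, which lowers the left values against the right, the same 4 genes stayed below (background 21.9%) and 0 stayed above (background 20.1%). Leaving out a library or changing the scaling, filter or tool did not turn the direction of the log2 fold change of Th, Ddc, Gch1, Pts, Qdpr, Slc6a3 or Slc18a2 in the 5 libraries. The values of Maoa and Maob fell slightly below 0, at -0.015 and -0.009, without right 1037, and were 0.09 and 0.15 without right 1039.

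Ratios of reads within a library do not depend on scaling between libraries. The genes set against Th were chosen with earlier results of these data known, so the lower ratios on the left partly restate the fall of Th. There were 21.3, 21.0 and 20.6 Th reads per Ddc read in right 1037, 1038 and 1039, so the 3 right libraries hardly differed. On the left the ratio was 6.10 in mouse 1037 and 4.48 in mouse 1039. The log2 ratio was lower on the left by a difference of -2.0, against SDs of 0.31 on the left and 0.024 on the right. Th per Slc6a3 also differed, at 8.13 and 10.3 on the left and 20.7, 17.7 and 18.1 on the right, a log2 difference of -1.04. Relative to Gad1, the enzyme of GABA synthesis that these cells share with other interneurons, the log2 difference of Th was -1.26, from ratios of 0.0379 and 0.0262 on the left and 0.0763, 0.0799 and 0.0702 on the right. All 3 ratios separated the sides completely, but an exact two-sided permutation test of 2 against 3 libraries cannot go below p = 0.2, which each of the 3 gave (Benjamini-Hochberg adjusted p = 0.2 over the 3).

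**Figure D3:**
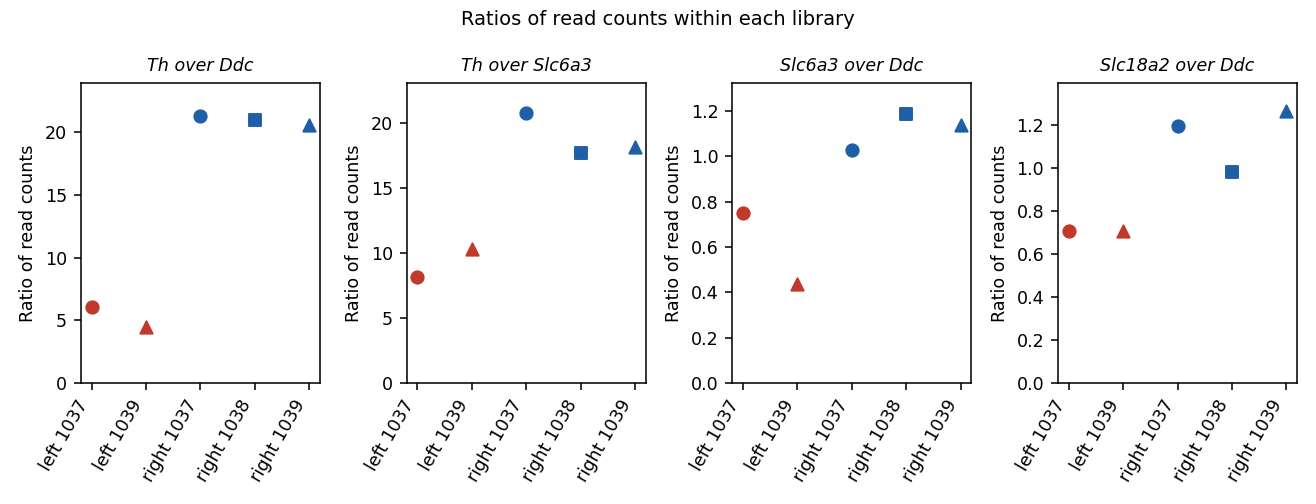
Ratios of read counts within each library (linear axes from 0), red for the 2 left and blue for the 3 right libraries. The Th over Ddc ratio is 20.6 to 21.3 in the right libraries and 4.48 and 6.10 in the left ones, and the ratios of Slc6a3 and Slc18a2 to Ddc are also lower on the left.

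The transporter and the pump were also lower against Ddc. Slc6a3 per Ddc was 0.750 and 0.435 on the left and 1.03, 1.19 and 1.14 on the right. Slc18a2 per Ddc was 0.7097 in left 1037 and 0.7099 in left 1039, and 1.20, 0.983 and 1.27 on the right. By contrast, Maoa per Maob ranged from 2.17 to 2.22 on the left and from 2.11 to 2.32 on the right, so the sides overlapped. The ratios without Th were formed after the values were seen and were not tested.

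Levels can be set side by side between genes only per length, and here CPM was divided by the longest annotated transcript. On the open side Th led, with 75.4 ± 8.16 CPM per kilobase (SD, n = 3), then Qdpr with 51.4 ± 2.87 CPM per kilobase. Maoa (11.4), Maob (8.81), Pts (5.08), Ddc (3.47), Slc6a3 (2.27), Slc18a2 (1.82) and Gch1 (0.661) followed in CPM per kilobase, and no neighbours in this order overlapped between the 3 libraries. On the left the order differed at the top, where Qdpr stood at 61.2 ± 7.33 CPM per kilobase and Th at 22.5 ± 3.63 CPM per kilobase (SD, n = 2 each). Slc6a3 (1.09 to 1.74) and Slc18a2 (1.30 to 1.41) overlapped there in CPM per kilobase. With all annotated exons joined as the length, 7 of 9 places on the open side stayed the same, and Slc6a3 (2.27) came before Ddc (1.57). Th is annotated from 142931128, although RefSeq starts it at 142899995, so the deposited length of 38377 bases, which is the whole span, was not used for its level.

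**Figure D4:**
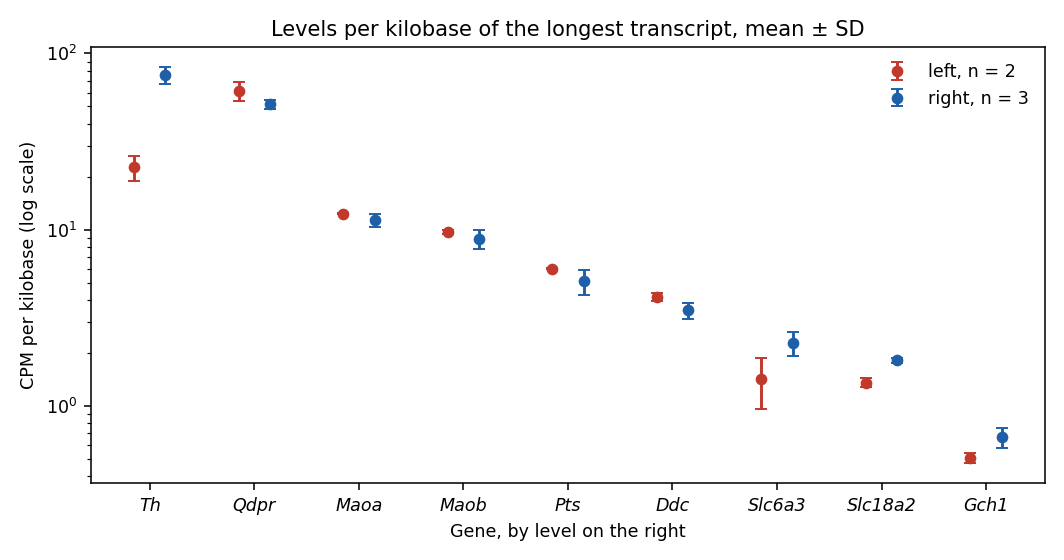
Mean CPM per kilobase of the longest transcript with SD, on a log axis, for the 2 left (red) and 3 right (blue) libraries, ordered by the right mean. Th is the highest gene on the right at 75.4 and lies below Qdpr on the left, at 22.5 against 61.2.

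The library labelled left 1038 had 6 of the 9 genes below all 5 other libraries, 2 above and 1 within their range. Of the 14412 genes tested, 42% lay below all 5 and 35.2% above all 5 in it. Slc18a2 had 0 reads there, which allows up to 0.206 CPM and makes the median of the other 5 at least 37.3-fold higher. Slc6a3 had 5 reads (0.343 CPM), Th 124 reads (8.51 CPM) and Ddc 28 reads (1.92 CPM), where the median of the other 5 was 20.4, 15.5 and 4.07 times higher. Gch1 and Pts were nearer to the others, at 1.10 and 15.0 CPM. Qdpr was highest in this library, at 98.1 CPM, while Maoa at 52.4 CPM was just above and Maob at 19.4 CPM within the range of the other 5. With this library included among the left ones, the log2 fold change of Th was -2.26 (SE 0.59, edgeR adjusted p = 0.554), and 0 of 14209 genes were called by edgeR (0.0%), of which 1196 had an unadjusted p under 0.05. DESeq2 called 194 genes in the 6 libraries (1.37%, with 1.04% lower), among them Th (adjusted p = 0.0133) and no other of the 9. In the 6 libraries Slc6a3 was at -1.28, Slc18a2 at -1.08, Gch1 at -0.63, Ddc at -0.24 and Qdpr at 0.28, with edgeR adjusted p from 0.554 to 0.866.

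Genes around the route were taken from 8 lists. Of their 63 genes 57 were tested, 11 were lower and 2 higher, where 6.46% of all genes tested were called lower and 3.16% higher. The same shares of all genes belong beside the counts of each list and of the markers below. The rest of the cofactor genes showed no called change: 0 of 5 were called, with a median log2 fold change of 0.12, which was 0.247 without right 1037 and 0.007 without left 1039. Spr, the enzyme that completes tetrahydrobiopterin, stood at 10.2 and 10.8 CPM on the left and 9.28 to 10.1 CPM on the right. Pcbd1, a dehydratase that recycles the cofactor, had 0.12 on the log2 scale (edgeR adjusted p = 0.794). Of 12 genes of dopamine breakdown and clearance 0 were called, with a median of 0.04 that ranged from -0.05 to 0.09 when 1 library was left out. The smallest p were those of Slc29a4, the plasma membrane monoamine transporter, at 0.36 (edgeR adjusted p = 0.0859), and Aldh1b1, an aldehyde dehydrogenase, at 0.25 (edgeR adjusted p = 0.381).

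Genes of the other monoamines were close to the limit of detection. Dbh, which makes noradrenaline from dopamine, lay at 0.0683 to 0.331 CPM in the 5 libraries and Pnmt had 0 reads in all 6. Of 8 such genes 4 could be tested and 0 were called. Tph2 and Tph1, enzymes of serotonin synthesis, had 1.66 and -1.12 on the log2 scale (edgeR adjusted p = 0.0867 and 0.157), from 3 to 16 reads per library. Pitx3 and En1, factors of midbrain dopamine neurons, had at most 1 read in any library.

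**Figure D5:**
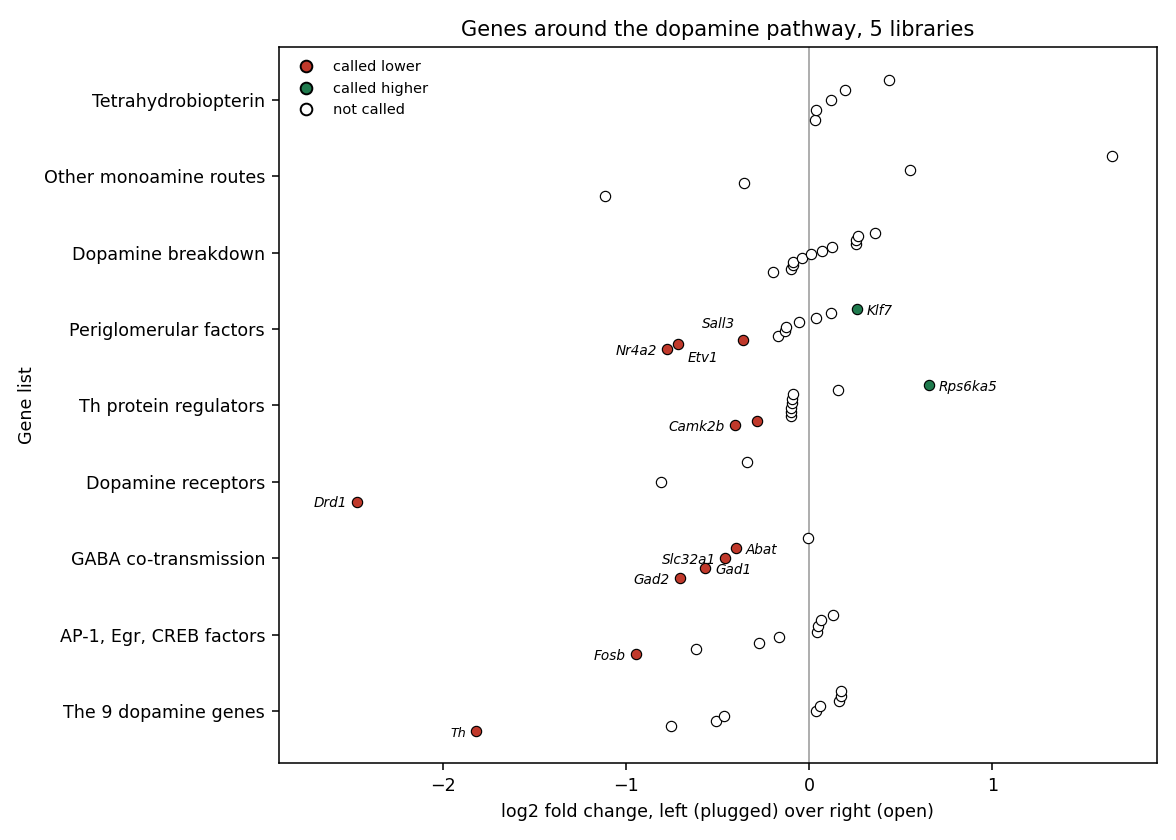
Log2 fold change, left over right, in the 5 libraries for the tested genes of 8 lists around the route and for the 9 dopamine genes, with red for called lower, green for called higher and white for not called. The genes of cofactor synthesis and of breakdown hold no called gene, and 4 of 5 genes of GABA co-transmission are red.

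Transcription factors of dopaminergic periglomerular neurons were mixed: 3 of 10 fell and 1 rose, with a median of -0.13 (-0.08 without left 1037, -0.09 without right 1038 and -0.20 without left 1039). Etv1, an ETS factor known to act on the Th gene in these cells, fell by 0.72 (SE 0.08, edgeR adjusted p = 9.90e-04), with 121 and 131 CPM on the left and 186 to 214 CPM on the right. Nr4a2, the orphan receptor Nurr1, fell by 0.78 (SE 0.15, edgeR adjusted p = 0.0108), with 24.2 and 21.6 CPM on the left and 30.2 to 43.6 CPM on the right. Sall3, a zinc finger factor these neurons need, fell by 0.36 (edgeR adjusted p = 0.0326), and Klf7 rose by 0.26 (edgeR adjusted p = 0.0437). The call of Sall3 ended without left 1037, right 1037, right 1038 or left 1039 (edgeR adjusted p up to 0.112) and with scaling by library total or DESeq2 with the mouse as a block. That of Klf7 ended without any 1 of the 5 libraries (edgeR adjusted p up to 0.190) and with DESeq2, with or without the block. Pax6 and Meis2, which mark the same lineage, had 0.12 and -0.17 and were not called.

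Of 5 genes of GABA co-transmission 4 fell, with a median of -0.46. Gad2 fell by 0.71 (edgeR adjusted p = 4.35e-04), Gad1 by 0.57, Slc32a1, the vesicular GABA transporter, by 0.46 and Abat, which breaks GABA down, by 0.40. These genes are shared by all GABAergic cells of the bulb, and each fell by less than Th. Among 3 tested dopamine receptors Drd1 fell by 2.47 (SE 0.29, edgeR adjusted p = 0.00142), from 4.62 to 5.26 CPM on the right to 0.713 and 1.19 CPM on the left. Drd2, the autoreceptor of dopamine cells, had -0.34 and Drd5 -0.81, and neither was called.

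Of 10 genes that act on the tyrosine hydroxylase protein, 2 fell and 1 rose, with a median of -0.10 (-0.06 without left 1037). Rps6ka5, the kinase MSK1, rose by 0.65 (SE 0.10, edgeR adjusted p = 0.00473), and Camk2b, a calmodulin-dependent kinase, fell by 0.41 (edgeR adjusted p = 0.00755). Of 8 factors of AP-1, Egr and CREB type, Fosb fell by 0.95 (SE 0.12, edgeR adjusted p = 0.00176), 0 rose, and the median was -0.06, which turned to 0.02 with scaling by library total. Fos had -0.62 and Creb1, the factor of the cAMP response element, 0.06, and neither was called (edgeR adjusted p = 0.0693 and 0.655).

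The 6 genes whose levels ran closest to those of Th were Atf5, Crh, Syt10, Vdr, Adcyap1 and Gal. Likeness was the Euclidean distance between log2(CPM + 1) values, centred on each gene's mean over the 5 libraries, among 11819 genes with a mean of at least 5 CPM. All libraries enter this measure, so it ranks mainly by the difference between sides. Atf5, a stress-related transcription factor, was nearest, at a distance of 0.336, with 21.8 and 18.9 CPM on the left and 55.8 to 59.9 CPM on the right. Crh, corticotropin-releasing hormone, had a distance of 0.361 and Syt10, a synaptotagmin of bulb neurons, 0.408. Vdr, the vitamin D receptor, and the neuropeptide genes Adcyap1 and Gal lay at 0.429 to 0.488. In the same order Slc6a3 came at place 146, Slc18a2 at 452 and Ddc at 9188, while Gch1 lay below the minimum level.

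Markers of sensory axons were lower on the left, as Th was. Of 6 such markers 4 fell and 0 rose, with a summed level of 93.8 and 152 CPM on the left and 332 to 413 CPM on the right. Omp fell by 2.55 (edgeR adjusted p = 0.00441). Its log2 fold change ranged from -3.92 (without left 1037) to -1.85 when 1 library was left out. The part of these markers in the level of Th was not tested. Among 5 markers of other periglomerular interneurons 3 fell and 1 rose. Trh, the thyrotropin-releasing hormone precursor, fell by 1.30 (SE 0.15, edgeR adjusted p = 0.00142), and Calb2, calretinin, rose by 0.26 (edgeR adjusted p = 0.0364), a call that ended without right 1037, right 1038 or left 1039 (edgeR adjusted p up to 0.121) and with DESeq2 and the mouse as a block (adjusted p = 0.0952). Of 6 bulb neuron markers 2 rose and 0 fell, and their sum was 1983 and 2274 CPM on the left and 1905 to 1984 CPM on the right.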

How the data were processed

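Reads per gene were taken from 1 deposited table with columns for 6 libraries. Per the file headers, the deposited values are read counts, whole numbers with no normalization, and RPKM values with a gene length. Deposited RPKM was not used, because its gene length matched the full gene span with introns, to 1 base, in 78.3% of 21852 annotated genes. The submitters' processing notes list HTSeq 0.6.1p2, TopHat2, DESeq 1.18.0, cutadapt 1.2.1 and the build GRCm38 without saying what each did. Whether counting used strand was not given in the sources used here, so reads of Ddc, Qdpr and Slc18a2 cannot be told apart from those of antisense genes that overlap them in GENCODE M21. Gch1 is also overlapped there by the processed pseudogenes Gm18811, on its own strand, and Gm49134, on the other strand. Of 22095 identifiers 243 had no symbol.

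Sides were compared with edgeR 4.0.16 in R 4.3.3 (TMM, filterByExpr, glmQLFit and glmQLFTest, a single term for side), and p-values were adjusted by Benjamini-Hochberg across the tested genes. The SE is the absolute log2 fold change over the square root of F, and intervals cover 95%. DESeq2 1.42.0, limma 3.58.1 (voom), other scalings and filters, a mouse block and leaving out each library were alternatives, and the DESeq2 fit of 6 libraries and TMM-scaled CPM were added after the data were seen. Both bulbs of a mouse are paired by the labels: their deviations from the group means correlated at 0.242 (mouse 1037) and 0.259 (mouse 1039), values that are not independent with 2 left libraries. The fits were tested on simulated data. The genes, lists and the choice of 5 libraries were made with earlier results of these data known. Genes named were the 9, the called genes of each list (up to 6, or the 2 with the smallest p where 0 were called), the 6 nearest to Th and markers, and Spr, Dbh, Pnmt, Pitx3, En1, Pax6, Meis2, Drd2, Drd5, Fos and Creb1, chosen after their values were seen. Some genes counted in the lists are not reported here by name. Promoter sequences are from RefSeq on GRCm38.p6.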

Additional observations from a re-analysis of the deposited data

Results flagged for a closer look

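A pair of the 9 genes stood higher in the library labelled left 1038, which the comparison of sides leaves out, than in every right library. Qdpr was read at 98.1 CPM in it against at most 75.0 CPM on the right, and Maoa at 52.4 CPM against at most 50.9 CPM. Both also lay above all 5 other libraries, as did 35.2% of the 14412 genes tested, so such a position was common in this library. Groups of 2 and 3 libraries were too small for a search for single outlying values.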

How the results depend on the processing

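Th kept its direction and its call under all 13 alternatives within the 5 libraries, with values from -2.0 to -1.66. With all 6 libraries it was not called by edgeR, at -2.26, nor with the replicate block, at -2.52 (edgeR adjusted p = 0.697), while DESeq2 called it. Of the 9 genes, 0 were called by edgeR in the 6 libraries with or without the block, 0 were called higher under any alternative, and 2 were called without left 1037. With the mouse as a block in the 5 libraries, a pairing by the labels, Th was at -1.74 by edgeR and by DESeq2 and no call among the 9 changed. DESeq2 with the block gave no adjusted p for Ddc, Gch1, Slc6a3 and Slc18a2.

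Over all genes 1387 calls were made (456 higher, 931 lower). Scaled by library total only, the split was 975 higher and 589 lower. The block gave 1553 calls by edgeR and 432 by DESeq2 (76 higher, 356 lower), and the 6 libraries gave 0 by edgeR, with and without the block, and 194 by DESeq2 (46 higher, 148 lower). Without 1 library the count ranged from 660 (without right 1038) to 1096, with 669 without right 1037 and 885 without left 1039, of which 172 to 366 were higher and 479 to 768 lower. In the 8 lists the 11 lower calls became 0 by edgeR and 4 by DESeq2 in the 6 libraries. The 2 higher calls became 4 with scaling by library total, 1 by DESeq2, with or without the block or in the 6 libraries, 0 by edgeR in the 6 libraries, and 1 without any 1 library.

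Etv1 was at 0.14 by edgeR and 0.15 by DESeq2 in the 6 libraries. The median of the AP-1, Egr and CREB factors was 0.022 with scaling by library total and ranged from -0.23 (without left 1039) to 0.042 (without left 1037), with 0.016 without right 1039. With a filter of 1 CPM in 3 libraries the list of other monoamines had no gene left. The left minus right log2 ratio ranged, without 1 library, from -2.23 to -1.78 for Th over Ddc, from -1.21 to -0.87 for Th over Slc6a3 and from -1.52 to -0.99 for Th over Gad1, and was -2.08, -0.56 and -1.68 in the 6 libraries. By CPM, 8 of the 9 genes did not overlap between sides, where 13.2% of all genes tested lay below and 33.2% above. After TMM scaling 4 did not overlap, all below, where 21.9% of all genes tested lay below and 20.1% above. With joined exons 7 of 9 places in the order of levels stayed. The cause of these shifts was not tested. Gch1, with 26 to 38 reads per library, and Slc6a3 limit what can be seen at this depth.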
